A study of Mus musculus with 10 samples.

Results

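The Myc family, the Max network that it works in, and the transcription factor Myb were followed across mouse blood progenitors that carried AML1/ETO, a mutant of AML1/ETO, or a vector alone. The genes were Myc, Mycn, Max, Mxd1, Mxd3, Mxd4, Mxi1, Mnt and Myb, 9 of the 18193 genes measured. The rule names the genes and uses no measured value. Their probe sets, the groups of short probes that read out a transcript, numbered 22 of the 34945 with a single gene. Each gene is given by its brightest probe set, by the mean over the 10 arrays, and the others serve as a check.

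The study measured RNA on Affymetrix arrays, with 1 array per sample and 3 groups. AML1/ETO is a leukaemia fusion protein that joins the DNA-binding part of RUNX1 to most of ETO. W692A is a substitution in the MYND domain of ETO, the zinc-binding domain that contacts the corepressors SMRT and N-CoR, so the design asks how far the effects of the fusion depend on that contact. Bone marrow came from C57BL/6 mice, 5 to 6 weeks old, and was depleted of lineage-positive cells, enriched for Sca1 and cultured with IL-3, IL-6 and SCF. The 3 groups were W692A (AML1/ETO with the substitution, 4 arrays), AML1/ETO (3 arrays) and GFP (3 arrays), the empty vector. All of them carried the MigR1 retrovirus with its GFP marker, were transduced in 2 rounds and kept their own Runx1. At 48 hours after the last round, 25000 live cells per sample were sorted as lineage-negative, positive for Sca1 and cKit, and positive for GFP. Transductions were independent, but the sources used here do not say whether they drew on different mice, so p-values measure the spread between these samples, which may be technical.

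Myc and Mycn are basic helix-loop-helix leucine zipper proteins that bind DNA as dimers with Max, mostly at the E-box, and raise the expression of genes for ribosomes, nucleotides and cell growth. Mxd1, Mxd3, Mxd4, Mxi1 and Mnt pair with the same Max and recruit the Sin3 corepressor, so they oppose Myc at shared sites. Myb is a transcription factor of a separate family. In blood, Myc and Mycn are known for the growth and self-renewal of stem and progenitor cells, Mxd proteins for the exit from the cell cycle during maturation, and Myb for the upkeep of immature progenitors.

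Values are log2 intensities as deposited, and a difference of 1 is a change of 2-fold. Levels of different probe sets are not set against each other, since probes differ in brightness. The brightest bacterial control probe set, which should find no RNA in these cells, read 2.04 on any array, and values below this bound were treated as background. In bulk RNA, fewer cells of a type and less RNA per cell cannot be told apart. Pairs of arrays within a group had correlations of 0.982 to 0.992 over genes above the bound, and pairs across groups 0.887 to 0.962. The 3′ minus 5′ difference of the Gapdh control probe sets, a sign of RNA integrity and amplification, averaged 4.01 ± 0.168 in W692A (SD, n = 4), 4.38 ± 0.573 in AML1/ETO (n = 3) and 4.93 ± 0.0889 in GFP (n = 3), so that no W692A array reached the lowest GFP array. AML1/ETO replicate 3 stood at 5.04, against 4.01 and 4.08 for the others of its group. The same difference for actin was 5.00 to 5.44 in W692A, 5.14 to 5.71 in AML1/ETO and 5.58 to 5.98 in GFP. The 18S rRNA control probe sets averaged 8.76 ± 0.181 in W692A (SD), 8.40 ± 0.236 in AML1/ETO and 7.95 ± 0.196 in GFP, and every array of both constructs lay above every GFP array. The part of these quality signs in the results was tested only for Gapdh and the spike-in level.

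Marker lists of blood cell types also moved between the groups. The mean of 8 measured stem and progenitor markers was 4.78 to 5.03 in W692A, 5.41 to 5.50 in AML1/ETO and 4.08 to 4.29 in GFP, although Kit, used in the sort, read below the bound in every group. The mean of 6 erythroid markers was 1.90 to 2.06 in W692A, 1.63 to 2.18 in AML1/ETO and 3.50 to 3.74 in GFP, with Epor and Hba-a1 below the bound in all groups. For 7 megakaryocyte markers it was 3.35 to 3.78 in W692A, 3.72 to 3.89 in AML1/ETO and 4.35 to 4.74 in GFP. For 7 monocyte and macrophage markers it was 5.18 to 5.38 in W692A, 5.40 to 5.66 in AML1/ETO and 4.31 to 4.56 in GFP. For 8 neutrophil markers it was 4.11 to 4.64 in W692A, 3.80 to 4.86 in AML1/ETO and 4.67 to 5.31 in GFP. For 8 eosinophil, basophil and mast cell markers it was 4.93 to 5.15 in W692A, 5.74 to 6.77 in AML1/ETO and 5.22 to 5.81 in GFP. Of 6 B lymphoid markers, Cd79a, Ebf1, Pax5 and Ms4a1 lay below the bound in all groups, and the list mean was 2.47 to 2.54 in W692A, 2.43 to 2.61 in AML1/ETO and 2.88 to 3.02 in GFP. Of 5 T and NK markers, Cd3e, Cd3g and Cd8a lay below it, and the list mean was 2.84 to 2.93 in W692A, 2.68 to 2.81 in AML1/ETO and 3.27 to 3.44 in GFP. The 7 stromal and endothelial markers averaged 1.13 to 1.24 in W692A, 1.87 to 2.11 in AML1/ETO and 1.21 to 1.35 in GFP. Whether these marker differences reflect a change in cell makeup was not tested, nor was their part in the differences reported here.

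With AML1/ETO the network moved on both of its sides: Myc and Mycn fell, and Mxi1, Mxd4 and Mxd1, which oppose them, rose against GFP. The Mxd1 groups overlapped, and its call was lost in 8 of the 22 alternatives tried. On its brightest probe set, the Mycn call was lost with the Gapdh difference as a covariate. Mxd3 and Mnt, also on the opposing side, did not pass against GFP. With W692A, Myc was again below GFP, while the differences of Mxi1 and Mxd4 from GFP were -0.14 and 0.10 and did not pass. By limma at an adjusted p under 0.05, 5 of the 9 genes passed between AML1/ETO and GFP, where 28.6% of all genes passed (12.9% rose and 15.8% fell). Between W692A and GFP, 1 of 9 passed, where 14.5% of all genes did (5.45% rose and 9.07% fell), which is close to that background. Between W692A and AML1/ETO, 3 of 9 passed, where 20.7% of all genes did (9.61% rose and 11.1% fell). These shares cover all 18193 genes, of which 8301 had a mean above the bound, while of the members only Max did not. Without the 40% dimmest genes, 5135 genes still passed between AML1/ETO and GFP and 3810 between W692A and AML1/ETO. The share among brighter genes is thus higher than the one given, and 5 of 9 and 3 of 9 may lie near it. Shares set beside the gene lists below have the same limit. The 3 comparisons share their arrays in pairs, so they are not independent of each other.

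**Figure D1:**
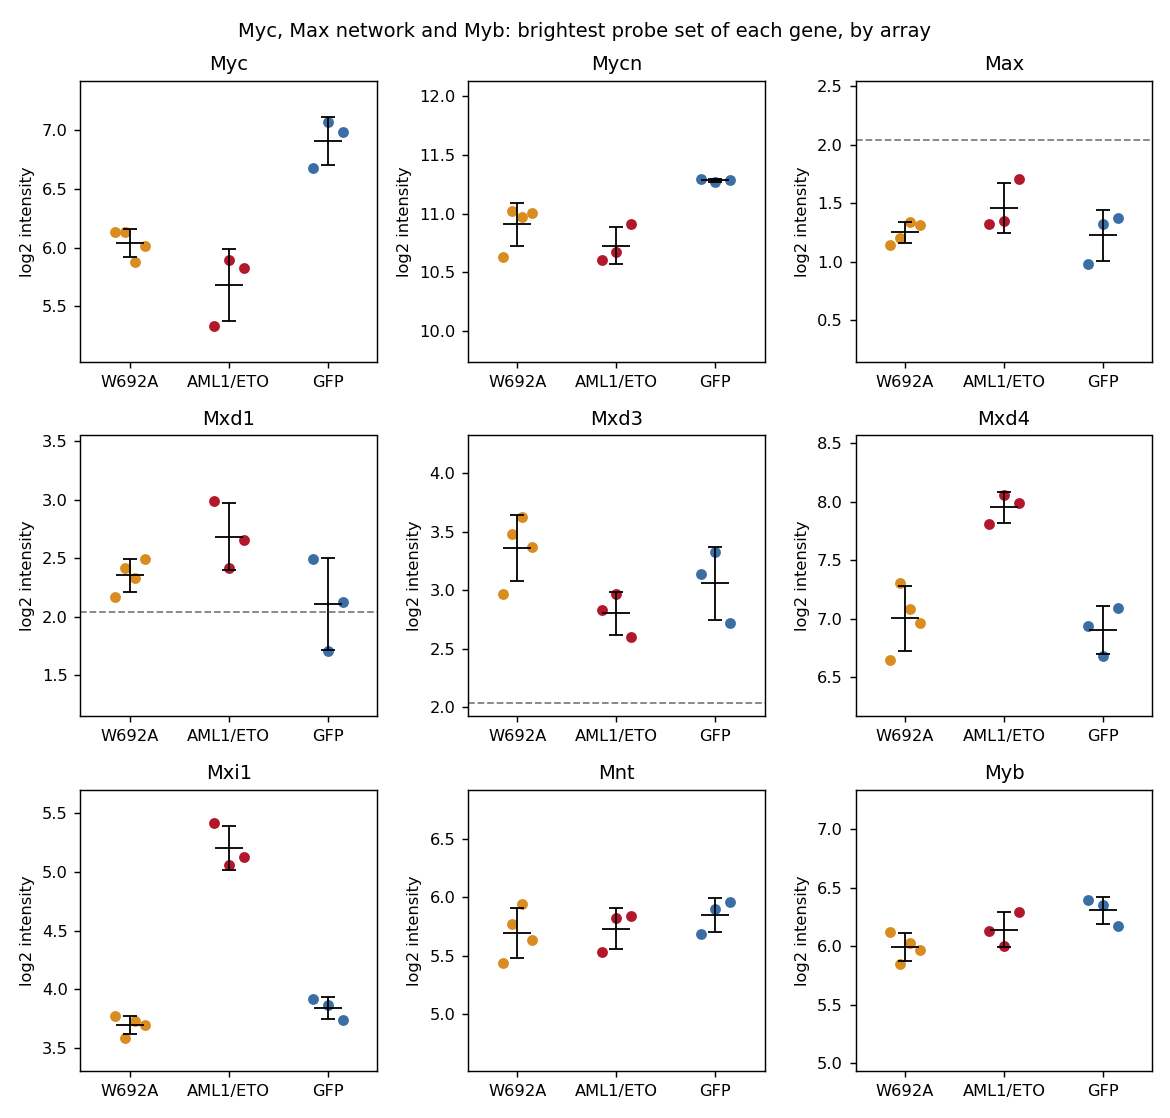
Log2 intensity of each of the 9 genes on each of the 10 arrays, with W692A, AML1/ETO and GFP from left to right in each panel, bars at the group mean ± SD and the background bound of 2.04 as a dashed line where the axis reaches it. Mxi1 and Mxd4 stand apart from both other groups on all 3 AML1/ETO arrays, and Myc is lower on every W692A and AML1/ETO array than on any GFP array.

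Myc, the main growth-promoting member, read 6.13, 6.13, 5.87 and 6.01 on the W692A arrays, 5.33, 5.89 and 5.83 on the AML1/ETO arrays, and 6.68, 7.07 and 6.98 on the GFP arrays. Every array with either form of the fusion lay below every GFP array, and the W692A and AML1/ETO arrays overlapped. Myc thus averaged 6.04 ± 0.123 in W692A (SD, n = 4), 5.68 ± 0.309 in AML1/ETO (n = 3) and 6.91 ± 0.207 in GFP (n = 3). In AML1/ETO it fell by 1.23 ± 0.159 (SE) relative to GFP, 2.34-fold, with a limma adjusted p of 2.46e-05. This call held under all 22 alternatives tried. In W692A it fell by 0.87 ± 0.148 relative to GFP, 1.83-fold, with a limma adjusted p of 0.000947. With the Gapdh difference entered as a covariate, the W692A difference was -0.64 and its limma adjusted p 0.265, so this call did not hold beside that measure of RNA integrity. The difference between W692A and AML1/ETO was 0.36, with a 95% interval of 0.04 to 0.67 and a limma adjusted p of 0.116.

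Mycn, a close relative of Myc that binds the same partner and sites, was read by 3 probe sets of very different brightness. The brightest read 10.63, 11.02, 10.97 and 11.01 in W692A, 10.60, 10.67 and 10.91 in AML1/ETO, and 11.29, 11.27 and 11.29 in GFP. All arrays with the fusion lay below the GFP arrays, which spread by very little. In AML1/ETO the difference from GFP was -0.56 ± 0.132 (SE), 1.47-fold lower, with a limma adjusted p of 0.00426, and with the Gapdh covariate it was -0.40 with an adjusted p of 0.0983. In W692A the difference from GFP was -0.38 ± 0.123 with a limma adjusted p of 0.055, so it did not pass although the groups did not overlap. These values lie near the top of the scale, whose highest value was 12.77.

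A dimmer Mycn probe set gave the same order of groups with more distance between them. It read 3.40, 3.07, 3.06 and 3.20 in W692A, 2.14, 2.26 and 1.57 in AML1/ETO, and 4.29, 3.95 and 3.82 in GFP, so that none of the 3 groups overlapped and AML1/ETO replicate 3 lay below the bound. In a limma fit over all probe sets the AML1/ETO difference from GFP was -2.03 ± 0.178 (SE), at least 3.67-fold lower, with an adjusted p of 8.81e-07. The W692A difference from GFP was -0.84 ± 0.167, 1.79-fold lower, with a limma adjusted p of 0.00426. W692A was higher than AML1/ETO by 1.19 ± 0.167, at least 2.05-fold, with a limma adjusted p of 0.000157. By the dimmer probe set Mycn with W692A thus lay between AML1/ETO and GFP, and all 3 calls held in the 15 alternatives tried for it. On the brightest probe set the difference between W692A and AML1/ETO was 0.18, with an interval of -0.08 to 0.44 and a limma adjusted p of 0.386. The third probe set was below the bound on every array.

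Max, the shared partner without which neither Myc nor the Mxd proteins bind DNA, could not be followed here. Its single probe set read 1.15 to 1.34 in W692A, 1.32 to 1.71 in AML1/ETO and 0.98 to 1.37 in GFP, below the bound on all 10 arrays. A value below the bound does not show that the gene is silent, and no fold is given.

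Mxi1, a member of the Mxd family that competes with Myc for Max, had the largest difference among the brightest probe sets. It read 3.77, 3.58, 3.73 and 3.69 on the W692A arrays, 5.42, 5.06 and 5.13 on the AML1/ETO arrays, and 3.91, 3.87 and 3.73 on the GFP arrays. All AML1/ETO arrays lay above all others, and the W692A and GFP arrays overlapped. In AML1/ETO it rose by 1.37 ± 0.124 (SE) relative to GFP, 2.58-fold, with a limma adjusted p of 7.37e-07. In W692A it was lower than in AML1/ETO by 2.85-fold, a difference of -1.51 ± 0.116 with a limma adjusted p of 3.55e-07. Between W692A and GFP the difference was -0.14, with an interval of -0.39 to 0.10 and a limma adjusted p of 0.504. The second probe set was below the bound on all arrays, where it passed at 0.80 in AML1/ETO against GFP and at -0.59 in W692A against AML1/ETO (limma adjusted p 0.00184 and 0.015 over all probe sets), and it gives no fold.

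Mxd4, another repressor that pairs with Max, followed the same pattern at a smaller size. It read 6.65, 7.31, 7.09 and 6.97 in W692A, 7.81, 8.06 and 7.99 in AML1/ETO, and 6.94, 6.68 and 7.09 in GFP. Again the 3 AML1/ETO arrays stood above every other array. Relative to GFP it rose in AML1/ETO by 1.05 ± 0.162 (SE), 2.07-fold, with a limma adjusted p of 0.000132. Relative to AML1/ETO it fell in W692A by 0.95 ± 0.152, 1.93-fold, with a limma adjusted p of 0.000338. The W692A difference from GFP was 0.10, with an interval of -0.22 to 0.42 and a limma adjusted p of 0.761. A further, dimmer probe set read 1.58 to 1.86 in W692A, 2.60 to 2.77 in AML1/ETO and 1.56 to 1.77 in GFP. It was above the bound only in AML1/ETO, which was at least 1.57-fold over GFP, with a difference of 1.03 ± 0.119 and a limma adjusted p of 1.28e-05 over all probe sets. Both genes kept their calls against GFP and against AML1/ETO under all 22 alternatives, the Gapdh covariate included.

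**Figure D2:**
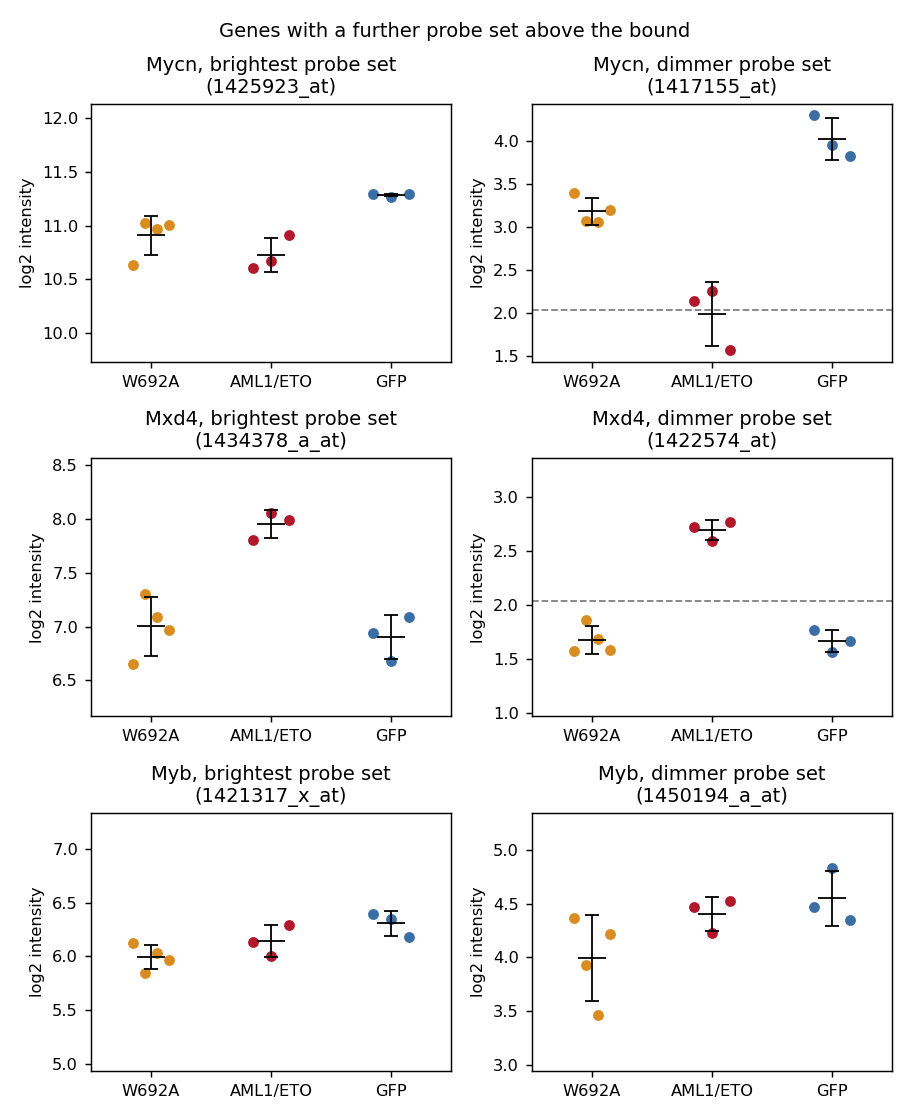
Log2 intensity by array of the brightest (left) and a dimmer probe set (right) of Mycn, Mxd4 and Myb, with W692A, AML1/ETO and GFP from left to right, bars at the mean ± SD and the background bound of 2.04 as a dashed line. The dimmer Mycn probe set separates all 3 groups, and the dimmer Mxd4 probe set rises above the bound only on the AML1/ETO arrays.

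Promoter windows from RefSeq (GRCm38.p6, 250 bases before to 50 after each annotated start) were available for 8 of the 9 genes, 10 windows in all, and were searched on both strands. The E-box CACGTG, the site of Myc and Max dimers, was present in 3 of the 10 windows, those of Max, Mnt and Mxd4, against 7.15% of all 32851 windows. The stretches around these E-boxes are shown because they place the network's own binding letters beside genes of the network, with the E-box in capitals.
Max, chr12:76962234-76962263, minus strand: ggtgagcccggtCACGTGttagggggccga
Mnt, chr11:74830789-74830818, plus strand: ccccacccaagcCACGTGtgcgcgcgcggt
Mxd4, chr5:34187912-34187941, minus strand: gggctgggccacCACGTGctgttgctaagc
The E-box of Max begins 3 bases before the annotated start, that of Mnt 123 bases before it and that of Mxd4 219 bases before it. The full windows of Mxd4 and of the first annotated Mxi1 start are printed because these genes moved together, with the E-box of Mxd4 in capitals and none in that of Mxi1.
Mxd4, chr5:34187661-34187960, minus strand: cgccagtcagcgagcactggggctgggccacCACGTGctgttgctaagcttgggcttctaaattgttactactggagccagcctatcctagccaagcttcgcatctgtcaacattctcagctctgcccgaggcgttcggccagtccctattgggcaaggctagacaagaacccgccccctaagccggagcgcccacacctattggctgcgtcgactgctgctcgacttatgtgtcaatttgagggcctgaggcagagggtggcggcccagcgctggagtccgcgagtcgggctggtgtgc
Mxi1, chr19:53310256-53310555, plus strand: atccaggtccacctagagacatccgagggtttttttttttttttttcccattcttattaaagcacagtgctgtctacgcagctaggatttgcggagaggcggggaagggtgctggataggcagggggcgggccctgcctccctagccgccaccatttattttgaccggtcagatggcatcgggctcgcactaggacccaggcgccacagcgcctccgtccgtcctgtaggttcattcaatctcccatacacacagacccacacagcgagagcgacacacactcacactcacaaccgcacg
The RUNX core TGTGGT, the letters that the DNA-binding part of AML1/ETO recognises, was in 0 of the 10 windows, against 16.8% of all windows. The Myb core AACNG was in 9 of the 10, against 80.3% of all windows. A match is a description of letters and not a bound site, and a lack of a match says only that the letters are not in these windows.

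The other members that oppose Myc gave smaller or less stable differences. Mxd1, which is induced as blood cells mature, read 2.17, 2.42, 2.33 and 2.49 in W692A, 2.99, 2.42 and 2.65 in AML1/ETO, and 2.49, 1.71 and 2.12 in GFP. The groups overlapped and the values lay close to the bound. In AML1/ETO it rose by 0.58 ± 0.187 (SE) relative to GFP, at least 1.38-fold, with a limma adjusted p of 0.0295. This call was lost without GFP replicate 2 (0.38, adjusted p 0.158), GFP replicate 3 (adjusted p 0.0645), AML1/ETO replicate 1 (0.43, adjusted p 0.148) or AML1/ETO replicate 3 (adjusted p 0.0577).

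Mxd3, which unlike the other Mxd genes is known for expression in dividing progenitors, read 2.97, 3.48, 3.62 and 3.37 in W692A, 2.84, 2.97 and 2.61 in AML1/ETO, and 3.14, 3.33 and 2.72 in GFP. It was higher in W692A than in AML1/ETO by 0.56 ± 0.170 (SE), 1.47-fold, with a limma adjusted p of 0.0301, although the lowest W692A array and the highest AML1/ETO array both read 2.97. That call too was lost when any of AML1/ETO replicates 1 and 3 or W692A replicates 2, 3 and 4 was left out. Neither construct differed from GFP past the threshold, with -0.26 in AML1/ETO and 0.30 in W692A.

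Mnt, the broadly expressed antagonist of Myc, read 5.44 to 5.94 in W692A, 5.53 to 5.84 in AML1/ETO and 5.69 to 5.96 in GFP. Its 3 groups overlapped throughout. The differences were -0.12 in AML1/ETO and -0.15 in W692A against GFP, and the 95% intervals of -0.43 to 0.20 and -0.44 to 0.14 exclude a change of 2-fold in either direction. Between W692A and AML1/ETO the difference was -0.04, with an interval of -0.33 to 0.26. The further probe sets of Mxd1 (2), Mxd3 (2) and Mnt (1), and the last 2 of Mxd4, were below the bound on every array. Of these 7, 1 of Mxd4 passed, at 0.62 in AML1/ETO against GFP (limma adjusted p 0.0199 over all probe sets), and no fold is given.

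Myb, which keeps blood progenitors immature, gave no call in any of the 3 comparisons on the probe sets above the bound. It read 6.13, 5.85, 6.03 and 5.97 in W692A, 6.13, 6.00 and 6.30 in AML1/ETO, and 6.40, 6.35 and 6.18 in GFP. All W692A arrays lay below all GFP arrays, and the AML1/ETO arrays overlapped both. The W692A difference from GFP was -0.31 ± 0.116 (SE) with a limma adjusted p of 0.0922, so it did not pass. It passed in 1 of the 22 alternatives (limma adjusted p 0.0438). In AML1/ETO the difference from GFP was -0.17, with an interval of -0.43 to 0.10 and a limma adjusted p of 0.409. By its name on the array (the suffix x), this probe set may also match other sequences. The next probe set read 4.37, 3.93, 3.46 and 4.22 in W692A, 4.47, 4.22 and 4.52 in AML1/ETO, and 4.47, 4.83 and 4.35 in GFP, and it too gave no call. Its difference from GFP was -0.55 in W692A, with a limma adjusted p of 0.0812, and -0.14 in AML1/ETO, with an adjusted p of 0.733. The last probe set was below the bound on every array, where AML1/ETO nonetheless passed against GFP at 0.50 (limma adjusted p 0.0213 over all probe sets), opposite in sign to the other probe sets, and no fold is given.

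**Figure D3:**
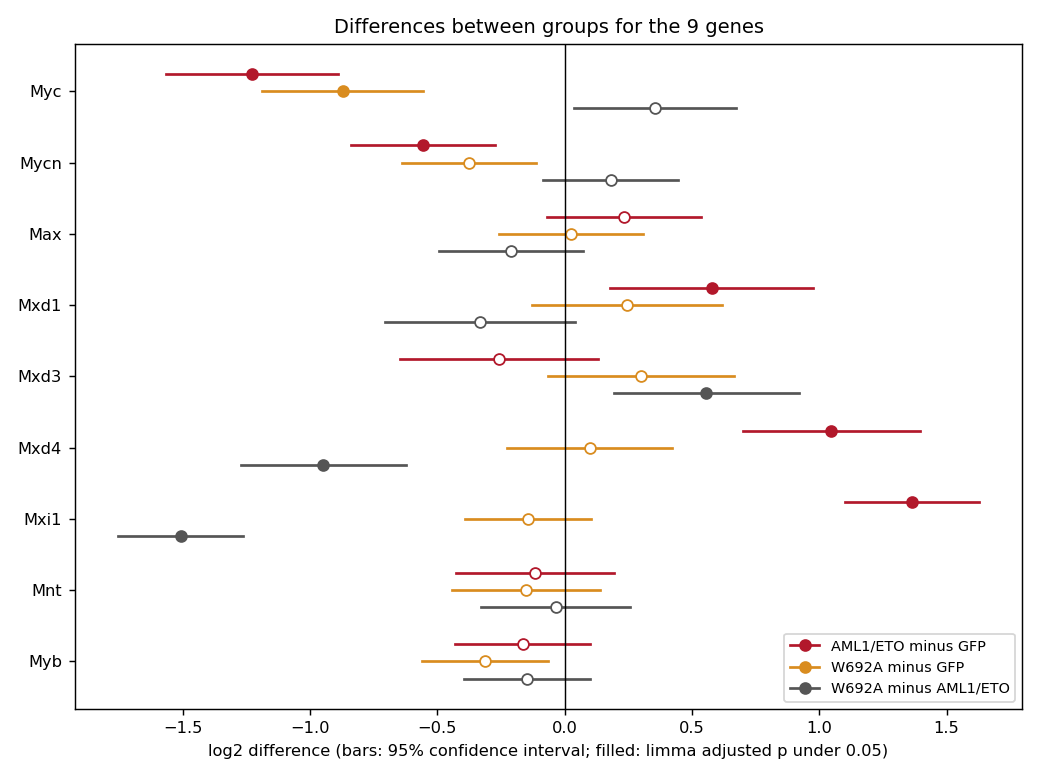
Log2 difference of each gene with its 95% interval from limma in the 3 comparisons, filled where the adjusted p was under 0.05. Mxi1 and Mxd4 lie above 0 for AML1/ETO minus GFP, below 0 for W692A minus AML1/ETO and near 0 for W692A minus GFP, while Myc lies below 0 with both constructs.

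The genes whose pattern over the 10 arrays was most like each member's were found by the root mean square distance between centred log2 values, among 7450 genes above the bound on all arrays. Nearest to Myc were Ttc32 (distance 0.144), Kcnq5 (0.156) and Fastkd1 (0.156), where the median gene stood at 0.540. Nearest to Mxi1 were Edem1 (0.136), Parp14 (0.138) and Antxr2 (0.141), with a median of 0.733. The nearest to Mxd4 were Pttg1ip (0.114), Mettl27 (0.125) and 1600012H06Rik (0.144), with a median of 0.575. Each of these 6 neighbours of Mxi1 and Mxd4 was higher in AML1/ETO than in GFP, by 0.87 to 1.49. In W692A their differences from GFP ran from -0.21 to 0.14. These neighbours were chosen by likeness on the same arrays, so such differences follow from the choice and are no separate result. Nearest to Mycn were Ttyh2 (0.0563), Rbck1 (0.0777) and Vps52 (0.0852), with a median of 0.349. Mxd3 was nearest to Usp2 (0.163), 1700037C18Rik (0.171) and Trmu (0.179), Mnt to Sap30l (0.0789), Llgl1 (0.0801) and Tcirg1 (0.0898), and Myb to Scaf8 (0.0616), Tmem164 (0.0721) and Coa5 (0.0724). Mnt and Myb vary little over the arrays (SD 0.176 each), so any gene that also varies little lies near them.

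The genes that Myc is known to induce in many cell types, for ribosome assembly, nucleotide synthesis and growth, were measured for 45 of 47 listed. Between AML1/ETO and GFP, 37 of the 45 fell and 1 rose, with a median difference of -0.94, against -0.02 over all genes and a background of 15.8% that fell. Between W692A and GFP, 11 fell and 1 rose, with a median of -0.19, against 0.01 over all genes and a background of 9.07% that fell. Between W692A and AML1/ETO, 38 rose and 1 fell, with a median of 0.83, against 0.03 over all genes and a background of 9.61% that rose. The level of this list thus lay nearer to GFP in W692A than in AML1/ETO, although Myc itself did not separate W692A from AML1/ETO past the threshold. The W692A count against GFP was 7 without GFP replicate 1, W692A replicate 2 or W692A replicate 4, and 1 with the Gapdh covariate, where the AML1/ETO count was 35. Rrp12 is among the falls in AML1/ETO against GFP and the rises between W692A and AML1/ETO. It lay below the bound on every array of both constructs and above it on only 1 GFP array, so no fold is given.

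Shmt1, which moves one-carbon units from serine to folate, read 6.85, 7.28, 7.08 and 6.91 in W692A, 5.38, 5.81 and 5.83 in AML1/ETO, and 7.68, 7.50 and 7.82 in GFP. None of the 3 groups overlapped, and in AML1/ETO it fell by 2.00 ± 0.155 (SE) relative to GFP, 3.99-fold, with a limma adjusted p of 1.69e-07. Tfrc, the transferrin receptor that takes up iron, fell by 1.81 in AML1/ETO (3.50-fold) and by 0.75 in W692A (1.68-fold) relative to GFP. Tfrc also marks erythroid precursors, whose markers were lower in both groups, and the part of that in its fall was not tested. Nop2, an rRNA methyltransferase of the nucleolus, fell by 0.69 in W692A (1.61-fold) and by 1.47 in AML1/ETO (2.77-fold) relative to GFP. Nop58, a core protein of the box C/D small nucleolar ribonucleoproteins, was higher in W692A than in AML1/ETO by 1.48 (2.79-fold) and fell by 1.08 in AML1/ETO relative to GFP (2.12-fold).

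A few members of the list ran against the rest. Odc1, the first enzyme of polyamine synthesis and a classic Myc target, read 8.29, 7.76, 7.69 and 7.69 in W692A, 9.60, 9.27 and 8.95 in AML1/ETO, and 8.02, 7.71 and 7.40 in GFP. It rose in AML1/ETO relative to GFP by 1.57 ± 0.201 (SE), 2.96-fold, with a limma adjusted p of 2.32e-05, the reverse of the other 37 called genes of its list. In W692A it was lower than in AML1/ETO by 2.67-fold. Pa2g4, a growth-linked RNA-binding protein of the nucleolus, read 9.25 to 9.41 in W692A, 7.96 to 8.03 in AML1/ETO and 8.43 to 9.13 in GFP, and it was the 1 gene of the list that rose in W692A relative to GFP, by 0.51 (1.43-fold, limma adjusted p 0.0231). Against AML1/ETO it was 2.56-fold higher in W692A, and it was 1.79-fold lower in AML1/ETO than in GFP.

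Of 7 genes that Myc is known to repress, 5 rose and none fell between AML1/ETO and GFP, 1 rose between W692A and GFP, and 4 fell between W692A and AML1/ETO. Over all genes, 12.9% rose between AML1/ETO and GFP, 5.45% rose between W692A and GFP and 11.1% fell between W692A and AML1/ETO. The median differences of the 7 were 0.48, -0.00 and -0.83 in the same order of comparisons. The first and last of these medians are the values of Gadd45a, which lay below the bound on every array. Ndrg2, a member of the Ndrg family with a role in growth arrest, read 3.53, 3.46, 3.12 and 3.55 in W692A, 6.16, 5.62 and 5.10 in AML1/ETO, and 2.63, 2.42 and 2.96 in GFP. It had the largest difference of the 7, 2.96 ± 0.220 (SE) or 7.76-fold in AML1/ETO against GFP, with a limma adjusted p of 1.04e-07, and it was 1.67-fold higher in W692A than in GFP. Ccng2, a cyclin linked to arrest of the cell cycle, rose in AML1/ETO by 1.20 relative to GFP (2.30-fold) and was 2.03-fold lower in W692A than in AML1/ETO. The other 3 that rose, the cell cycle inhibitors Cdkn1b and Cdkn2b and the damage-response gene Gadd45a, passed at values below the bound, so no fold is given for them. Cdkn1b and Gadd45a were also below it where they fell in W692A against AML1/ETO. Cdkn1a and Ndrg1, which lay above the bound, did not pass in any comparison, with 0.12 and 0.19 in AML1/ETO against GFP.

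**Figure D4:**
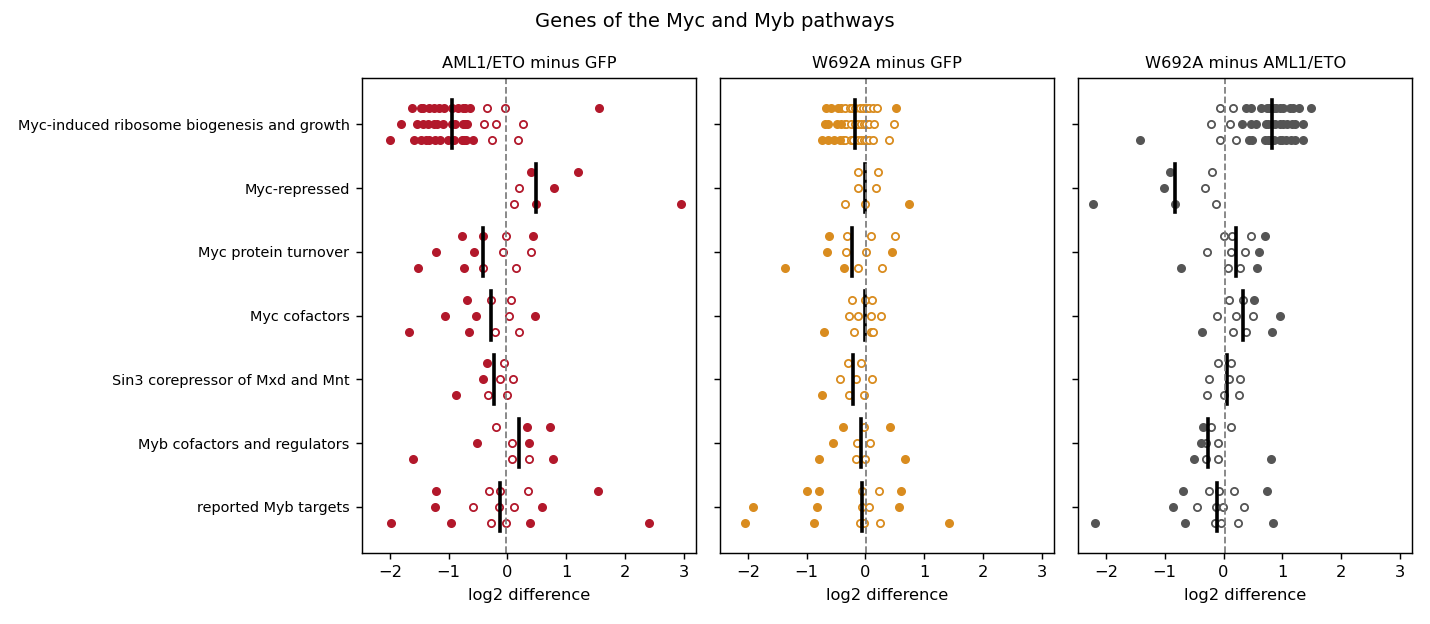
Log2 differences of every measured gene in 7 lists of the Myc and Myb pathways for the 3 comparisons, filled where the limma adjusted p was under 0.05, with the list median as a bar and the median of all genes as a dashed line. Most of the 45 Myc-induced genes lie below 0 for AML1/ETO minus GFP and above 0 for W692A minus AML1/ETO, and the median for W692A minus GFP is -0.19.

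The machinery around the network was also measured. Of 12 genes that control the stability of the Myc protein, 6 fell and 1 rose between AML1/ETO and GFP (median -0.42), 4 fell and 1 rose between W692A and GFP (median -0.22), and 3 rose and 1 fell between W692A and AML1/ETO (median 0.22). Over all genes, 15.8% fell and 12.9% rose in the first of these comparisons, 9.07% fell and 5.45% rose in the second, and 9.61% rose and 11.1% fell in the third. Among the falls in AML1/ETO against GFP, Usp36 passed at values below the bound, and no fold is given for it. Skp2, the F-box protein of a ubiquitin ligase for p27 and Myc, fell by 0.62 in W692A (1.54-fold) and by 1.22 in AML1/ETO (2.33-fold) relative to GFP and was 1.51-fold higher in W692A than in AML1/ETO. Trim32, a ubiquitin ligase, fell by 1.52 in AML1/ETO (2.87-fold) and by 1.37 in W692A (2.59-fold) relative to GFP. Usp28, which removes ubiquitin from Myc, fell by 0.66 in W692A (1.58-fold) and by 0.73 in AML1/ETO (1.66-fold) relative to GFP. Gsk3b, the kinase that marks Myc for degradation, rose relative to GFP by 0.44 in W692A (1.36-fold) and by 0.43 in AML1/ETO (1.35-fold). Its limma adjusted p was 0.048 and 0.0427, and its AML1/ETO and GFP arrays overlapped. Set, an inhibitor of the phosphatase PP2A, was 1.49-fold higher in W692A than in AML1/ETO and 1.49-fold lower in AML1/ETO than in GFP. Fbxo28, an F-box protein that acts on Myc, was 1.66-fold lower in W692A than in AML1/ETO. Its difference of 0.40 between AML1/ETO and GFP did not pass.

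Of 11 Myc cofactors, 5 fell and 1 rose between AML1/ETO and GFP (median -0.28), 1 fell between W692A and GFP (median -0.01), and 3 rose and 1 fell between W692A and AML1/ETO (median 0.34). The single fall in W692A is close to the 9.07% of all genes that fell there, and the falls in AML1/ETO stand beside 15.8% of all genes and the rises between W692A and AML1/ETO beside 9.61%. Ruvbl1, an ATPase that works with Myc in chromatin complexes, read 7.00, 6.52, 6.84 and 6.58 in W692A, 5.75, 5.78 and 5.78 in AML1/ETO, and 7.85, 7.30 and 7.19 in GFP. The groups did not overlap, and it fell by 1.68 in AML1/ETO (3.20-fold, limma adjusted p 2.36e-06) and by 0.71 in W692A (1.64-fold, limma adjusted p 0.00692) relative to GFP. Ruvbl1 was 1.95-fold higher in W692A than in AML1/ETO. Its partner Ruvbl2 fell in AML1/ETO by 1.06 (2.09-fold) relative to GFP and was 1.77-fold higher in W692A than in AML1/ETO. Trrap, the scaffold of histone acetyltransferase complexes, ran the other way. It was 1.39-fold higher in AML1/ETO than in GFP and 1.30-fold lower in W692A than in AML1/ETO. Trrap was the 1 rise and the 1 fall of the 11 in these comparisons, where 12.9% of all genes rose and 11.1% fell. Both counts are near those shares.

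Of 8 subunits of the Sin3 corepressor, through which the Mxd proteins and Mnt act, 3 fell between AML1/ETO and GFP (median -0.23) and 1 fell between W692A and GFP (median -0.22), while none passed between W692A and AML1/ETO (median 0.05). Over all genes, 15.8% fell between AML1/ETO and GFP and 9.07% between W692A and GFP, and the single fall in W692A is near that share. Hdac2, a histone deacetylase of the complex, fell by 0.74 in W692A (1.67-fold) and by 0.87 in AML1/ETO (1.82-fold) relative to GFP. Its W692A and GFP arrays overlapped. The scaffold Sin3a fell by 0.41 in AML1/ETO relative to GFP (1.33-fold). The 5 other genes of the Max network and its Mlx branch, Mycl, Mga, Mlx, Mlxip and Mlxipl, gave no call in any of the 3 comparisons, with median differences of 0.05 between AML1/ETO and GFP, 0.02 between W692A and GFP and -0.11 between W692A and AML1/ETO. Over all genes, 28.6%, 14.5% and 20.7% passed in these comparisons. The first and second medians are the values of Mycl and the last that of Mlxipl, both below the bound on every array. Only Mga and Mlxip had a group mean above the bound. Mga differed from GFP by -0.42 in AML1/ETO (95% interval -0.80 to -0.04) and by -0.49 in W692A (-0.85 to -0.14). Its limma adjusted p was 0.100 and 0.0628. Mlxip differed from GFP by 0.27 in AML1/ETO and 0.02 in W692A.

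On the side of Myb, 10 cofactors and regulators were measured, of which 4 rose and 2 fell between AML1/ETO and GFP (median 0.21), 2 rose and 3 fell between W692A and GFP (median -0.08), and 1 rose and 3 fell between W692A and AML1/ETO (median -0.26). Over all genes the shares were 12.9% and 15.8%, 5.45% and 9.07%, and 9.61% and 11.1%, so the 2 falls in AML1/ETO and the 1 rise against AML1/ETO are close to the background. Psip1, a chromatin reader that links Myb to the histone methyltransferase Kmt2a, read 5.56, 5.31, 4.96 and 5.20 in W692A, 4.36, 4.23 and 4.74 in AML1/ETO, and 6.37, 6.10 and 5.70 in GFP. All 3 groups were apart, with falls of 1.61 in AML1/ETO (3.05-fold) and of 0.79 in W692A (1.74-fold) relative to GFP. Kmt2a itself rose with both, by 0.77 in AML1/ETO (1.70-fold) and by 0.67 in W692A (1.60-fold). Nlk, a kinase that phosphorylates Myb for degradation, rose by 0.72 in AML1/ETO (1.64-fold) and by 0.42 in W692A (1.34-fold) relative to GFP. Fbxw5, a ubiquitin ligase subunit, was 1.31-fold lower in W692A and 1.43-fold lower in AML1/ETO than in GFP. Map3k7, a kinase upstream of Nlk, was 1.46-fold lower in W692A than in GFP and 1.28-fold lower in W692A than in AML1/ETO. Between W692A and AML1/ETO, Psip1 was 1.76-fold higher, the kinase Hipk2 1.41-fold lower and Crebbp, an acetyltransferase that Myb binds, 1.31-fold lower. Hipk2 was also 1.26-fold higher in AML1/ETO than in GFP.

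Of 16 reported Myb targets, 4 rose and 4 fell between AML1/ETO and GFP (median -0.13), 3 rose and 6 fell between W692A and GFP (median -0.06), and 2 rose and 4 fell between W692A and AML1/ETO (median -0.10). Over all genes, 12.9% rose and 15.8% fell in the first comparison, 5.45% and 9.07% in the second, and 9.61% and 11.1% in the third. The 2 rises between W692A and AML1/ETO are thus close to the background. Kit and Gata3, among the rises in AML1/ETO against GFP, passed at values below the bound. So did Kit among the falls between W692A and AML1/ETO, and no fold is given. Myc itself is on this list and is among the falls against GFP with both constructs. Bcl2, which protects cells from apoptosis, read 3.26 to 3.48 in W692A, 3.21 to 3.69 in AML1/ETO and 5.23 to 5.62 in GFP, 4.16-fold lower in W692A and 3.93-fold lower in AML1/ETO than in GFP. Cd34, a surface protein of blood progenitors, was 2.67-fold higher in W692A and 2.91-fold higher in AML1/ETO than in GFP. Gfi1, a transcriptional repressor that neutrophil development requires, read 3.28, 3.87, 3.05 and 3.99 in W692A, 5.47, 5.65 and 6.06 in AML1/ETO, and 3.15, 3.46 and 3.35 in GFP. It was 5.30-fold higher in AML1/ETO than in GFP and 4.53-fold lower in W692A than in AML1/ETO. Elane, the neutrophil elastase, was 3.75-fold lower in W692A and 2.32-fold lower in AML1/ETO than in GFP. Ccne1, the cyclin of entry into S phase, was 1.53-fold higher in W692A than in GFP. Between W692A and AML1/ETO, Ccne1 was 1.66-fold higher, the C/EBP factor Cebpb 1.80-fold higher and the adenosine deaminase gene Ada 1.81-fold lower. Against GFP, W692A was 1.48-fold higher for Cebpb, although the arrays overlapped, and 1.99-fold lower for Ada. Of the other Myb genes, Mybl1 lay below the bound, and Mybl2, which is linked to cell division, read 2.13 to 2.43 in W692A, 1.34 to 1.89 in AML1/ETO and 2.23 to 2.34 in GFP. Mybl2 was lower in AML1/ETO than in GFP by at least 1.19-fold, with a limma adjusted p of 0.00188, and higher in W692A than in AML1/ETO by at least 1.23-fold, with a limma adjusted p of 0.00112.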

How the data were processed

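RNA of 10 sorted samples was measured, 1 Affymetrix array each, and the number of arrays limits the precision. The authors deposited a log2 intensity for each probe set and array, made with RMA per the submitters' processing notes, which give no version. The base is not stated; the highest value of 12.77 would exceed the scanner's 65535 as a natural logarithm, so base 2 was used. RMA forces arrays to a common distribution, which hides differences in total RNA. Of 45101 probe sets, 64 controls, 9160 without a listed gene and 932 with several were left out, which gave 18193 genes. Symbols of 34741 probe sets were updated by gene identifier to GRCm38.p6.

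Groups came from the sample labels. All genes were fitted at once with limma 3.58.1 (R 4.3.3, lmFit and eBayes, 3 groups in 1 fit, 7 residual and 7.53 prior degrees of freedom), with Benjamini-Hochberg adjustment over all genes and a threshold of 0.05. The fit over every probe set, used for dimmer probe sets, was adjusted over all probe sets. The procedure was tested on simulated data. The bound of 2.04 is the brightest value of 27 bacterial control probe sets; a fold against arrays below it used the bound and is a lower limit. Gene lists were described by counts and medians, with no test of the list.

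The members, lists, bound and alternatives were chosen with earlier results of these data known. Named genes were the members, per list and comparison up to 2 that rose and 2 that fell with the largest differences, groups apart and the brighter group above the bound, and the 3 genes nearest to each member. Mybl1, Cdkn1a, Cdkn1b, Cdkn2b, Gadd45a, Ndrg1, Kit, Gata3, Usp36, Rrp12 and the genes of the Mlx branch fall outside this rule. They were named, with their values seen, to account for small counts and for calls below the bound. Alternatives were a filter on the 40% dimmest genes, probe sets averaged or fitted singly, array weights, quantile normalization, a replicate block, median subtraction, a trended and robust prior, only 2 groups in a fit, RNA quality and spike-in covariates, values set to the bound, and leaving out each array. Those for the Myc-induced list and the dimmer Mycn probe set were added after seeing the data. Promoter windows are from RefSeq.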

Additional observations from a re-analysis of the deposited data

Results flagged for a closer look

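The W692A group of 4 arrays was examined for an array far from the others (Dixon's criterion) on the 22 probe sets of the 9 genes and on 4 quality measures, 26 in all, and 2 held one, and chance marks about 1 in 20 such groups. On the brightest Mycn probe set, W692A replicate 1 read 10.6331, against 10.97 to 11.02 for the other W692A arrays. On the Mycn probe set that lies below the background bound everywhere, W692A replicate 1 read 0.8752, against 0.67 to 0.70 for the others. On the third Mycn probe set W692A replicate 1 was also the highest of its group, at 3.40 against 3.06 to 3.20, so the array was low on 1 Mycn probe set and high on the others. Without W692A replicate 1 the brightest Mycn probe set differed between W692A and GFP by -0.29, with a limma adjusted p of 0.131.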

How the results depend on the processing

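The rises of Mxi1 and Mxd4 and the fall of Myc in AML1/ETO against GFP, and the differences of Mxi1 and Mxd4 between W692A and AML1/ETO, kept direction and call in all 22 alternatives. Between W692A and GFP, 2 of the 9 genes passed instead of 1 without the 40% dimmest genes, with probe sets averaged per gene or with a trended, robust prior, and 3 passed with values below the bound set to it. With the Gapdh covariate 0 passed there and 3 passed between AML1/ETO and GFP instead of 5, and 506 of all genes passed between W692A and GFP instead of 2642; since that measure differs between the groups, the 2 cannot be told apart. The Myc-induced genes that fell in W692A against GFP numbered 7 with probe sets averaged, 1 with the Gapdh covariate and 7 to 12 when 1 array was left out, instead of 11. Directions turned only for differences that no setting called. With probe sets averaged these were Myb in AML1/ETO against GFP (0.0653), Mxi1 in W692A against GFP (0.0354) and Mnt in W692A against AML1/ETO (0.0391). Mnt in W692A against AML1/ETO was also 0.0328 with median subtraction, 0.006 with the Gapdh covariate and -0.1351 to 0.0498 when 1 array was left out. Mnt in AML1/ETO against GFP was 0.0371 with the spike-in covariate. Max in W692A against GFP was -0.0027 with quantile normalization and -0.0984 to 0.0991 when 1 array was left out, and Mxd4 in W692A against GFP was -0.0128 to 0.2165 when 1 array was left out. The cause of these changes was not tested. Calls that Mxd1 (AML1/ETO against GFP) and Mxd3 (W692A against AML1/ETO) had were lost in 8 of 22 alternatives each. In W692A against GFP, Mycn passed in 4 of 22 and Myb in 1 of 22. Over all genes, quantile normalization gave 1262 that rose and 1352 that fell in W692A against GFP, instead of 991 and 1651, and median subtraction gave 2220 and 1682 in W692A against AML1/ETO, instead of 1748 and 2017. Samples that share a replicate number did not deviate together in every pair (correlations of -0.13 to 0.46), so the numbers were not used as pairs. All pairs of replicate 1 were positive (0.29, 0.26 and 0.46), as was W692A with GFP of replicate 3 (0.34). This check cannot tell whether some of these samples share a source. With the replicate number as a block, 5272, 2344 and 3509 genes passed in AML1/ETO against GFP, W692A against GFP and W692A against AML1/ETO, and no call of the 9 genes changed. With values set to the bound Max has no value. Probe sets below the bound, Max among them, limit what can be said of those genes.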
